A study of Mus musculus with 33 samples.

Results

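Transcripts of 9 chemokine receptors that steer leukocytes into tissues, Ccr2, Ccr4, Ccr6, Ccr8, Ccr9, Cxcr3, Cxcr4, Cxcr5 and Cxcr6, were followed through 11 sorted cell groups of naive mice and of mice that had accepted a pancreatic islet xenograft. The receptors were taken by name, by matching the gene identifiers of the count tables to these symbols in the GRCm38 annotation, a rule that uses no measured value, although the set itself was chosen with earlier results of these data known. All 9 had a row among the 31054 features counted. All 9 also passed the filter of at least 1 CPM (the counts of a gene scaled to a fixed library total) in at least 1 library, which left 25347 genes for testing.

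Every animal was a DEREG mouse, a C57BL/6 line whose transgene expresses the diphtheria toxin receptor and EGFP from the Foxp3 promoter, so that regulatory T cells (Tregs) could be sorted as CD4+GFP+ cells. Tolerant mice carried 4000 islet equivalents of porcine neonatal islet cell clusters (NICC) under the kidney capsule, had been given the CD154 antibody MR-1 and the costimulation blocker CTLA4-Fc at 500 µg a dose, and were analysed on day 100. Naive mice had neither transplant nor treatment. Tregs of tolerant mice were sorted by CD127, the IL-7 receptor chain, into CD127hi and CD127-/lo cells in spleen (SP) and in the lymph node that drains the kidney (DLN), whereas graft Tregs were taken without that division. Naive mice gave undivided SP/naive and DLN/naive Tregs. The 4 groups without Foxp3 were CD4+GFP- T cells (CD4+) and CD45+CD4- cells from the spleens of naive and of tolerant mice. Each of the 11 groups had 3 libraries.

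Gene totals ranged from 2550698 to 4615283 counts in the 24 spleen and graft libraries and from 844039 to 1935323 in the 9 DLN libraries. DLN libraries were run on another sequencer, so tissue and instrument cannot be told apart there, and the naive lymph node donors were female and the tolerant mice male, so sex and tolerance cannot be told apart in comparisons with DLN/naive Tregs. Levels below are CPM scaled by TMM factors, and the limit that a count of 0 allows, 3 counts, corresponded to 0.636 to 3.11 CPM (counting error only). Foxp3 stood at 166 to 672 CPM in the 21 Treg libraries and at no more than 8.20 CPM in the 12 others, and Cd4 at no more than 33.6 CPM in the CD45+CD4- libraries. Each library was a pool of several mice by the study's methods, yet the naive mice listed for each organ are too few for separate pools in every library, so naive libraries may share animals and p-values measure the spread between libraries, which may in part be technical. The tolerant recipients listed are likewise too few for separate pools in every tolerant library. Tolerant groups therefore share animals, while the test treats all libraries as independent. In bulk RNA, fewer cells carrying a transcript and less transcript per cell cannot be told apart.

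Chemokine receptors are G protein-coupled receptors that turn gradients of secreted chemokines into directed migration and integrin activation. T cells change their set of receptors on activation, losing some of those that keep them circulating through lymphoid organs and gaining those that read chemokines of skin, gut, inflamed tissue or B cell follicles. Tregs use the same receptors, and CCR8 and CCR4 are known as receptors of activated and tissue Tregs.

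Cxcr6 passed the test in more comparisons than any other of the 9 receptors. It had no read in any library of SP/CD127-/lo and DLN/naive Tregs and was found in CD4+ T cells and graft Tregs, whereas Ccr2 was highest in graft and SP/CD127hi Tregs and Ccr8 was found mainly in Tregs. Across the 18 comparisons, 10 of 162 tests of the 9 receptors passed an adjusted p under 0.05 in edgeR's quasi-likelihood test, 7 of Cxcr6, 2 of Ccr8 and 1 of Ccr2, where 0.321% of all gene tests in these comparisons passed. Ccr4, Ccr6, Ccr9, Cxcr3, Cxcr4 and Cxcr5 passed in none of them. The comparisons share libraries and are not independent of each other. Libraries of 1 group often differed widely. The SD exceeded the mean in 5 of 35 receptor and group values of spleen and graft Tregs and in 12 of 26 of DLN Tregs, and the median coefficient of variation was 51.5% and 97.3%, respectively.

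**Figure D1:**
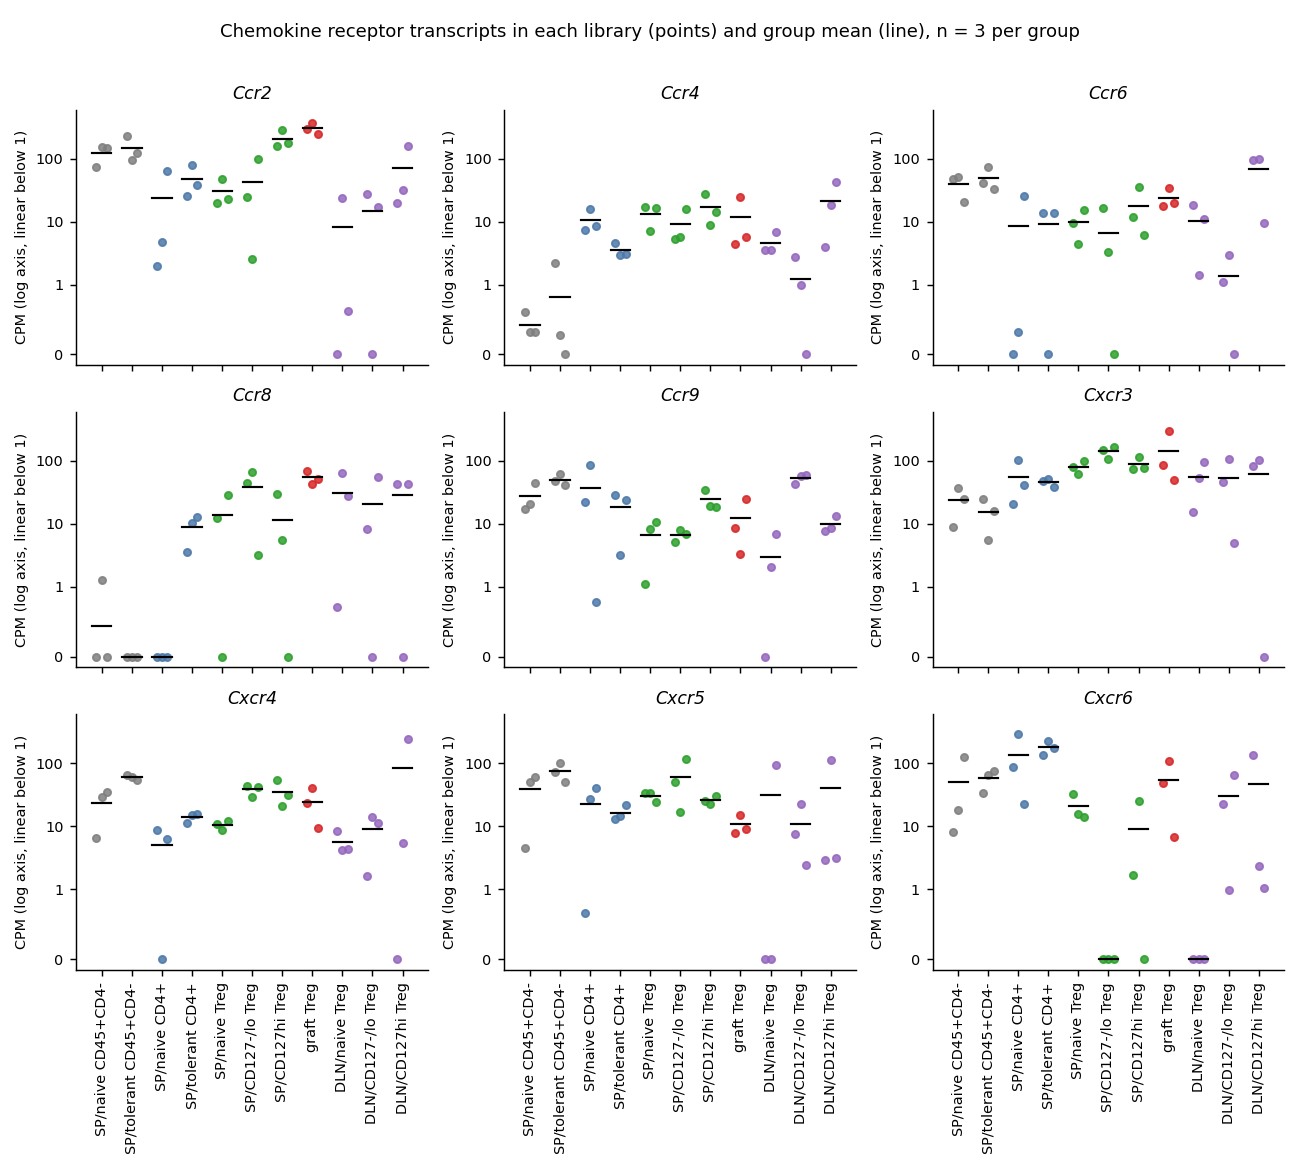
CPM of each receptor (vertical axis, logarithmic above 1 CPM and linear below) in each of the 33 libraries (points) by group (horizontal axis), with the group mean as a black line. Ccr2 is highest in graft and SP/CD127hi Tregs, Cxcr6 is at 0 in all SP/CD127-/lo and DLN/naive Treg libraries, and the DLN points of 1 group are often far apart.

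Per kilobase of annotated exon, Cxcr3 had the highest mean of the 9 receptors in the 3 splenic Treg groups. It had 46.6 CPM per kb in SP/naive, 81.7 in SP/CD127-/lo and 51.8 in SP/CD127hi Tregs, and it stayed first without any 1 library. In the graft, Cxcr3 averaged 83.2, Ccr8 47.1, Ccr2 44.6 and Cxcr6 28.4 CPM per kb. The first place of Cxcr3 there rested on replicate 2, with 49.7, 171 and 29.1 CPM per kb in the 3 libraries against 59.7, 36.9 and 44.6 for Ccr8. Without graft replicate 2, Ccr8 came first with 52.2, ahead of Ccr2 with 39.7 and Cxcr3 with 39.4 CPM per kb. Cxcr4 had 13.7, Ccr6 10.4, Ccr4 3.77, Cxcr5 3.22 and Ccr9 1.19 CPM per kb there. The second mean was that of Ccr8 in SP/naive and SP/CD127-/lo Tregs and of Ccr2 in SP/CD127hi Tregs. Without SP/naive replicate 3 it was Cxcr6 and without SP/CD127-/lo replicate 2 Cxcr5. These are orders of means, and they were not tested. The length counts the exon bases of all annotated transcripts, 10260 for Ccr9, 6760 for Ccr2, 1731 for Cxcr3 and 1175 for Ccr8. The transcripts present may be shorter, so the order of genes depends in part on the annotation.

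**Figure D2:**
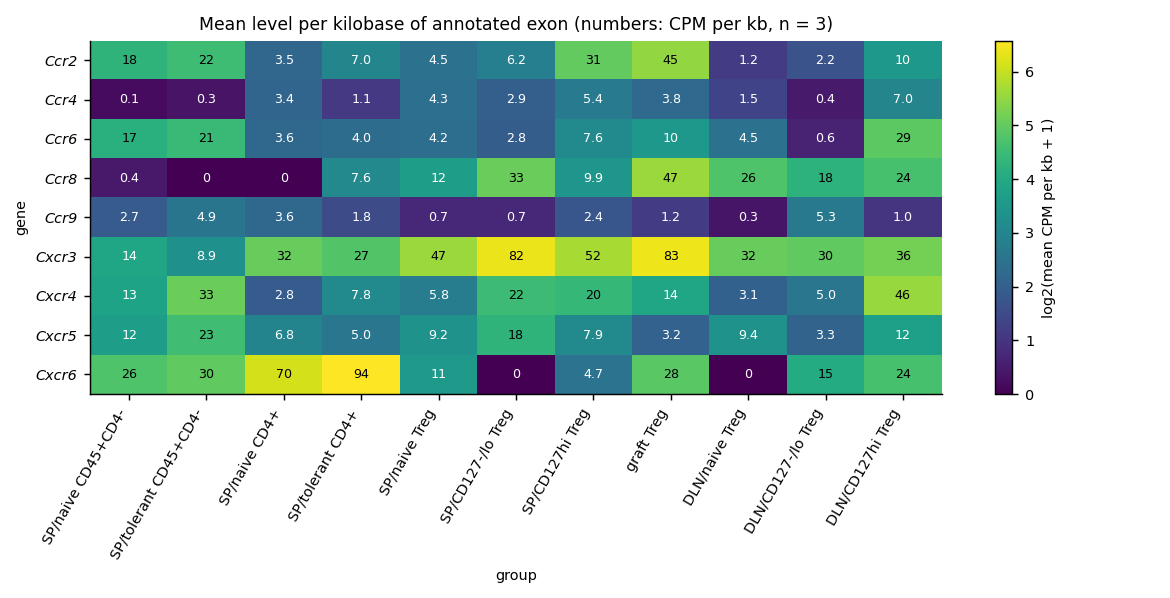
Mean level of each receptor (rows) in each group (columns) as CPM per kilobase of annotated exon, n = 3 libraries, with the number in each cell and the colour as log2 of the value plus 1. Cxcr3 leads in the 3 splenic Treg groups and, through graft replicate 2 alone, in the graft mean, and Cxcr6 reads 0 in SP/CD127-/lo and DLN/naive Tregs.

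Ccr2 encodes the receptor for CCL2, which draws monocytes and activated T cells into inflamed tissue. It lies at chr9:124101950-124113557 on the plus strand. Graft Tregs had 291, 367 and 246 CPM, and SP/CD127hi Tregs had 157, 284 and 179 CPM. SP/naive Tregs had 19.5, 48.0 and 22.98 CPM, and SP/CD127-/lo Tregs had 24.3, 2.52 and 98.5 CPM. All libraries of graft and SP/CD127hi Tregs therefore lay above all libraries of the other splenic Tregs, while graft and SP/CD127hi Tregs overlapped. The log2 fold change of graft Tregs was 3.32 ± 0.87 (SE) against SP/naive Tregs with an adjusted p of 0.0797, 2.85 ± 0.85 against SP/CD127-/lo Tregs with 0.268, and 0.54 ± 0.80 against SP/CD127hi Tregs with 0.947. None of the 3 passed the threshold, and the first passed in 3 of 7 other settings, with adjusted p between 0.00361 and 0.436. SP/CD127hi Tregs differed by 2.31 from SP/CD127-/lo and by 2.78 from SP/naive Tregs on the log2 scale, with adjusted p of 0.466 and 0.628. The difference from SP/naive Tregs passed when the compared libraries were fitted alone (0.0171).

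Among CD4+ T cells, Ccr2 had 1.97, 4.75 and 63.9 CPM in naive and 25.8, 79.5 and 37.6 CPM in tolerant mice. The third naive library stood apart from the other naive ones and lay within the tolerant range. Graft Tregs were higher than naive CD4+ T cells by 3.68 ± 0.89 on the log2 scale (301 ± 61.0 against 23.5 ± 35.0 CPM, SD, n = 3, adjusted p = 0.0128). Without naive CD4+ replicate 1 or 2 the adjusted p was 0.116 and 0.0913, and without replicate 3 the difference was 6.47. The likelihood ratio test gave 0.0686 and the stricter filter 0.177. In the DLN, Ccr2 had 0, 23.8 and 0.620 CPM in naive, 27.3, 0 and 17.2 in CD127-/lo and 19.5, 31.5 and 160 in CD127hi Tregs, 3 groups that overlapped. The difference of DLN/CD127hi from DLN/naive Tregs, 3.11 ± 0.89, had an adjusted p of 0.0557, which became 0.484 without DLN/CD127hi replicate 3 and 9.45e-05 without DLN/naive replicate 2. It also passed with relative log expression (RLE) scaling of the libraries (0.0432), with no filter (0.0216) and without DLN/CD127hi replicate 1 (0.0438) or 2 (0.00670), and not by the likelihood ratio test (0.133) or DESeq2 (0.0744), with the stricter filter (0.207), the replicate block (0.0812) or only the compared libraries (0.645), or without DLN/naive replicate 1 (0.255) or 3 (0.225).

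CD45+CD4- cells, which include monocytes, had 73.6, 150 and 150 CPM of Ccr2 in naive and 226, 96.7 and 123 CPM in tolerant mice. A list of 9 macrophage and monocyte markers (Lyz2, Csf1r, Cd68, Adgre1, Itgam, Ly6c2, C1qa, C1qb, Mrc1) was therefore read beside it. Its summed level was 94.0, 0 and 470 CPM in graft, 255, 208 and 160 in SP/CD127hi, 26.5 to 117 in SP/naive, 15.8 to 310 in SP/CD127-/lo, 58.8 to 77.4 in naive CD4+ and 351 to 1597 in CD45+CD4- libraries. The graft library with the most Ccr2, replicate 2 with 367 CPM, had 0 reads of all 9 markers, and Csf1r, Adgre1, C1qa and Mrc1 were at 0 in all 3 graft libraries. Ly6c2, with 18.1, 0 and 0 CPM in graft and 0.275, 0.677 and 0 CPM in SP/naive Tregs, was called higher in the graft (4.18 ± 1.01, adjusted p = 0.0431). Against naive CD4+ T cells, the comparison in which Ccr2 passed, Lyz2 was higher in graft Tregs (65.8, 0 and 427 against 0, 0.317 and 0 CPM, adjusted p = 5.57e-11) and Ly6c2 was lower (adjusted p = 0.0145). Ly6c2 was also lower in SP/naive Tregs than in naive CD4+ T cells (-7.62 ± 1.09, adjusted p = 7.92e-08), so it was not confined to monocytes here. The part of macrophages and monocytes in the Ccr2 level of the graft was not tested. In SP/CD127hi Tregs all 9 markers had reads, and their part in the Ccr2 level there was not tested. In the DLN, the summed level was 4.20 to 429 CPM in naive, 119 to 724 in CD127-/lo and 630 to 1064 CPM in CD127hi Tregs. Ly6c2 was higher in DLN/CD127hi than in DLN/naive Tregs (6.11 ± 1.02, adjusted p = 1.39e-05), the comparison in which Ccr2 was at 3.11, and the part of these cells was not tested.

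**Figure D3:**
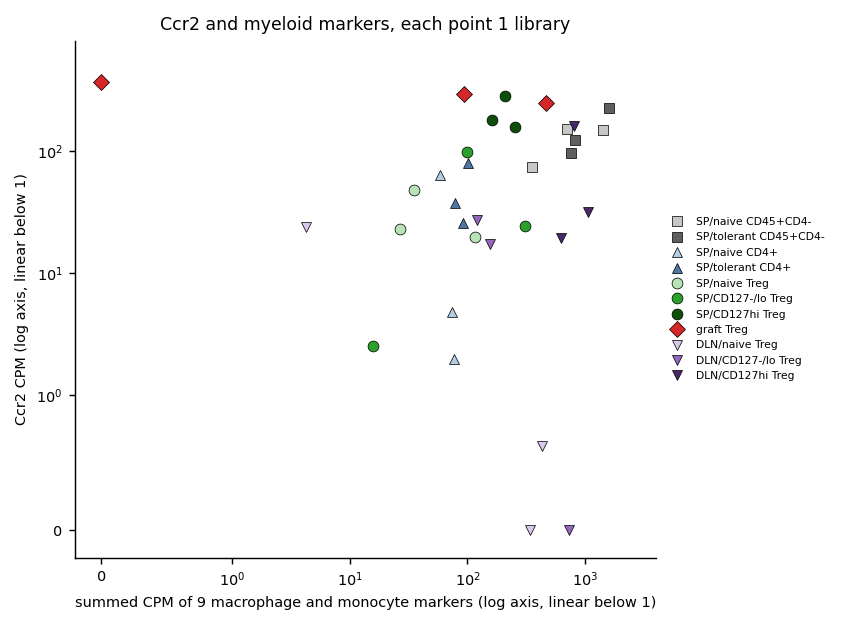
Ccr2 (vertical axis, CPM) against the summed CPM of 9 macrophage and monocyte markers (horizontal axis), both logarithmic above 1 and linear below, each point 1 of 33 libraries coloured by group. A graft library with 0 marker reads has 367 CPM of Ccr2, and DLN/CD127hi libraries with 630 to 1064 CPM of the markers have 19.5 to 160 CPM.

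Cxcr6 encodes the receptor for CXCL16 and is known from T cells that settle in liver, lung and other tissues. It lies at chr9:123806475-123811760 on the plus strand, 22.1 kb beyond the end of Ccr9. The 248 bases before it (GRCm38.p6, chr9:123806227-123806474, plus strand, from RefSeq) are printed because whole groups of libraries had no Cxcr6 read, and capitals mark GGAAA, the core letters bound by NFAT factors, searched on both strands.
Cxcr6: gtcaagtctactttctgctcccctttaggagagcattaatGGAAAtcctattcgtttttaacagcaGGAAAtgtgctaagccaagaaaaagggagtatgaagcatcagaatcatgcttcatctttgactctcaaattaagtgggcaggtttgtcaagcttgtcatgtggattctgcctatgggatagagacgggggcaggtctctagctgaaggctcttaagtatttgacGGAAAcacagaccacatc

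GGAAA occurred 3 times in that window, and 55.6% of the 32851 mouse promoter windows in the RefSeq table hold it at least once. The window held none of the other 3 patterns searched, which are spelled out where the promoters are compared.

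Cxcr6 had 0 reads in all 3 SP/CD127-/lo and all 3 DLN/naive Treg libraries. SP/naive Tregs had 32.5, 15.6 and 13.9 CPM, SP/CD127hi Tregs had 1.70, 25.4 and 0 CPM, and graft Tregs had 48.7, 109 and 6.85 CPM. CD4+ T cells stood above most Tregs, with 87.9, 296 and 22.3 CPM in naive and 137, 230 and 178 CPM in tolerant mice. Tolerant CD4+ T cells lay above all 12 spleen and graft Treg libraries. CD45+CD4- cells had 8.25, 18.3 and 126 CPM in naive and 34.3, 66.2 and 74.7 CPM in tolerant mice.

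SP/CD127-/lo Tregs fell below SP/naive Tregs by at least 25.0-fold against the floor of 3 counts per library, 0.827 CPM (adjusted p = 4.11e-04), below naive CD4+ T cells by at least 164-fold (1.45e-07) and below tolerant CD4+ T cells by at least 220-fold (9.31e-08). In these 3 comparisons the groups did not overlap, and the calls held without any 1 of their 6 libraries, although the first was lost with a stricter filter on low counts (0.891). Without naive CD4+ replicate 2 the second bound was 66.7-fold. B cell and myeloid list genes were called there too. Against SP/naive Tregs, Ms4a1 was lower (adjusted p = 0.00776). Against naive CD4+ T cells, Ms4a1 (8.55e-07), Ebf1 (1.27e-07) and Ly6c2 (0.0208) were lower and Lyz2 (3.95e-10) was higher. Against tolerant CD4+ T cells, Ly6c2 (0.0217) was lower and Cd79b (0.00681) and Lyz2 (1.03e-04) were higher. Their part was not tested. Cxcr6 was higher in graft than in SP/CD127-/lo Tregs by at least 66.4-fold (adjusted p = 2.35e-05), or 33.6-fold without graft replicate 2. That call was lost with the stricter filter or when only those 6 libraries were fitted, with adjusted p up to 0.331. SP/CD127hi Tregs passed as well (at least 10.9-fold, adjusted p = 0.00688), but 1 of their libraries was also at 0, and the bound of 1.02-fold without SP/CD127hi replicate 2 came with an adjusted p of 0.507. That call was also lost without SP/CD127-/lo replicate 1, 2 or 3 (adjusted p = 0.109, 0.0710 and 0.0684), with the stricter filter (0.566) and with only the compared libraries (0.276). Between these groups the B cell marker Ms4a1 was higher in SP/CD127hi Tregs (64.0, 0 and 11 CPM against 0, 0.252 and 0 CPM, adjusted p = 2.57e-08) and the T cell markers Cd3g (-1.43 ± 0.31, adjusted p = 0.0106) and Cd3d (-1.36 ± 0.29, adjusted p = 0.00826) were lower. SP/CD127hi replicate 2, without which the Cxcr6 call was lost, had 0 reads of Ms4a1. Summed over 6 B cell markers (Cd79a, Cd79b, Ms4a1, Pax5, Cd22, Ebf1), these groups overlapped. SP/CD127hi libraries had 95.2, 8.26 and 81.6 CPM and SP/CD127-/lo libraries 41.0, 50.1 and 65.4 CPM. The part of B cells in the Cxcr6 difference was not tested. The difference between graft and SP/CD127hi Tregs was 2.61 ± 1.06 (adjusted p = 0.351), or 5.89 with an adjusted p of 0.0267 without SP/CD127hi replicate 2, and that from SP/naive Tregs was 1.41 ± 1.01 (adjusted p = 0.793). SP/CD127hi Tregs lay below all tolerant CD4+ libraries, by 4.33 ± 1.14 on the log2 scale with an adjusted p of 0.0533. It passed with no filter (0.0179), the replicate block (0.0131) and the compared libraries alone (0.0219) and not by the likelihood ratio test (0.152) or DESeq2 (0.102), with RLE scaling (0.0531) or with the stricter filter (0.339), and without SP/CD127hi replicate 2 the difference was -7.61 (0.000692). Without any 1 of the other 5 libraries it did not pass (0.0754 to 0.318).

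In the DLN, Cxcr6 had 22.9, 0.996 and 65.4 CPM in CD127-/lo and 136, 2.36 and 1.04 CPM in CD127hi Tregs. Both groups rose over DLN/naive Tregs, by at least 14.7-fold (adjusted p = 0.00146) and 22.9-fold (1.51e-04) against a floor of 2.03 CPM. Each rested on few libraries. The second DLN/CD127-/lo library had a single count and the other DLN/CD127hi libraries had 3 counts and 1 count. Without DLN/CD127hi replicate 1 that call was lost (adjusted p = 0.358) and the mean of the other libraries was 0.837 times the floor, so that no rise was bounded. Without DLN/CD127-/lo replicate 3 the other bound was 5.88-fold. The DLN/CD127-/lo call was lost with the stricter filter (0.124), and neither passed with only the compared libraries. The NK and CD8 T cell markers (Ncr1, Klrb1c, Eomes, Cd8a, Cd8b1) summed to 193, 3.94 and 120 CPM in DLN/CD127hi Tregs, to 11.4 CPM or less in DLN/CD127-/lo Tregs and to 1.42, 0 and 70.1 CPM in DLN/naive Tregs, all of which had no Cxcr6 read. The library with 136 CPM of Cxcr6 also had 144 CPM of Cd8a, and the part of those cells in its level was not tested. Markers of other cells also rose over DLN/naive Tregs in these comparisons. In DLN/CD127-/lo Tregs they were the B cell markers Ms4a1 (adjusted p = 1.05e-04) and Cd79b (0.00153) and Ly6c2 (0.0245). Ly6c2 was listed for monocytes and was also found in naive CD4+ T cells. In DLN/CD127hi Tregs they were Cd79b (1.50e-07), Cd22 (0.00160), Ms4a1 (0.00583), Ebf1 (0.0424), Ly6c2 (1.39e-05), the neutrophil marker S100a8 (0.00357) and Cd8b1 (7.38e-05). Their part in the Cxcr6 rises was not tested. An interaction term that set CD127hi minus CD127-/lo in spleen against the same contrast in DLN had an adjusted p of 0.0879, or 0.0353 with no filter on low counts. Its size is not given, since SP/CD127-/lo Tregs had 0 reads and the fitted value then depends on the prior count.

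Cxcr3, the receptor for CXCL9, CXCL10 and CXCL11 and a mark of T cells under T-bet, lies at chrX:101731535-101734269 on the minus strand. It had 79.8, 62.2 and 99.8 CPM in SP/naive, 149, 107 and 169 in SP/CD127-/lo, 75.2, 117 and 76.4 in SP/CD127hi and 86.1, 296 and 50.3 CPM in graft Tregs. Only SP/CD127-/lo against SP/naive Tregs did not overlap, with 0.81 ± 0.85 on the log2 scale (adjusted p = 0.891). SP/CD127-/lo and SP/CD127hi Tregs both lay above all tolerant CD4+ libraries (47.4, 51.1 and 39.1 CPM), by 1.62 ± 0.87 and 0.97 ± 0.85 (adjusted p = 0.760 and 0.755), and the first passed when the compared libraries were fitted alone (0.0199). Graft replicate 2 set the graft mean, and without it the log2 difference from SP/naive Tregs went from 0.84 to -0.24. Naive CD4+ T cells had 20.998, 105 and 41.5 CPM, and CD45+CD4- cells between 5.50 and 37.5 CPM. DLN Tregs ranged from 0 to 108 CPM, with the lowest library of each tolerant DLN group at 4.91 and 0 CPM.

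Ccr8 encodes the receptor for CCL1 and marks activated Tregs in skin and tumours. The gene lies at chr9:120092114-120094906 on the plus strand. The 231 bases before it (GRCm38.p6, chr9:120091883-120092113, plus strand, from RefSeq) are printed because naive CD4+ T cells had no Ccr8 read, and none of the 4 letter patterns was found in them, so no base is in capitals.
Ccr8: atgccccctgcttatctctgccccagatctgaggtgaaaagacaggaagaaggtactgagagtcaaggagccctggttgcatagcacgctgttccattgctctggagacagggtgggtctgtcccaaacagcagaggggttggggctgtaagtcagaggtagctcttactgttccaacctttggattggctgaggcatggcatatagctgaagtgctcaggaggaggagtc

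Ccr8 was the receptor most restricted to Treg libraries, with reads in 17 of 21 of them, in 3 of 6 CD4+ and in 1 of 6 CD45+CD4- libraries, the last with 1.30 CPM. Graft Tregs had 70.1, 43.4 and 52.4 CPM. SP/CD127-/lo Tregs had 45.2, 67.2 and 3.22 CPM, SP/naive Tregs 12.4, 0 and 29.3 CPM and SP/CD127hi Tregs 29.5, 5.51 and 0 CPM. Graft Tregs therefore lay above all SP/naive and SP/CD127hi libraries and overlapped with SP/CD127-/lo Tregs. The log2 differences were 1.99 ± 1.46, 2.24 ± 1.48 and 0.52 ± 1.41, respectively, with adjusted p of 0.793, 0.759 and 1. In the DLN, the groups overlapped, with 0.710, 63.8 and 27.9 CPM in naive, 8.18, 0 and 54.8 in CD127-/lo and 42.8, 0 and 42.5 CPM in CD127hi Tregs.

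Naive CD4+ T cells had 0 reads of Ccr8 in all 3 libraries. Against their floor of 1.04 CPM, graft Tregs were higher by at least 53.4-fold (adjusted p = 0.00451), a call that held without any 1 of the 6 libraries and was lost with the stricter filter (0.0924). SP/CD127-/lo Tregs were higher by at least 37.2-fold (adjusted p = 0.00864), which became 0.0653 and 0.0597 without naive CD4+ replicate 1 or 2 and 0.121 with the stricter filter, and the bound was 23.4-fold without SP/CD127-/lo replicate 2. SP/naive and SP/CD127hi Tregs had adjusted p of 0.0578 and 0.0562, and both passed by DESeq2 (0.0289 and 0.0258), the likelihood ratio test (0.0450 and 0.0421), no filter (0.0329 and 0.0340) and the replicate block (0.0400 and 0.0342). Both missed the threshold with RLE scaling (0.0567 and 0.0564), the stricter filter (0.341 and 0.227), the compared libraries alone (0.174 and 0.25) and without any 1 naive CD4+ library. Tolerant CD4+ T cells had 3.65, 10.2 and 12.9 CPM, at least 8.60-fold above the naive floor, with an adjusted p of 0.226.

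Ccr4, the receptor for CCL17 and CCL22 and a skin-homing receptor of memory T cells, lies at chr9:114490316-114504916 on the minus strand. It had reads in 20 of 21 Treg libraries, at 42.5 CPM or less. Graft Tregs had 4.33, 25.0 and 5.66 CPM and overlapped with all 3 splenic groups, with log2 differences of -0.20 against SP/naive, 0.36 against SP/CD127-/lo and -0.53 against SP/CD127hi Tregs (adjusted p = 1 in each). SP/CD127hi Tregs, with 27.3, 8.88 and 14.2 CPM, lay above tolerant CD4+ T cells with 4.56, 2.99 and 3.09 CPM (2.23 ± 1.70, adjusted p = 0.755). Naive CD4+ T cells, with 7.22, 15.8 and 8.62 CPM, also lay above tolerant ones, and CD45+CD4- libraries held at most 2.21 CPM. DLN/CD127hi Tregs had 3.89, 18.1 and 42.5 CPM against 2.73, 0.996 and 0 CPM in DLN/CD127-/lo Tregs, 2 groups that did not overlap (4.01 ± 1.90, adjusted p = 0.502, or 0.00561 by DESeq2).

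Ccr6 encodes the receptor for CCL20 and is used by Th17 cells, a share of Tregs and B cells. The gene lies at chr17:8236043-8257141 on the plus strand. Graft Tregs had 17.9, 34.6 and 19.7 CPM, above all libraries of SP/naive Tregs (9.64, 4.40 and 15.4 CPM) and of SP/CD127-/lo Tregs (16.4, 3.27 and 0 CPM), and overlapped with SP/CD127hi Tregs (11.7, 35.5 and 6.08 CPM). The log2 differences were 1.29 ± 1.35, 1.87 ± 1.37 and 0.44 ± 1.33, and none passed (adjusted p = 0.830, 0.850 and 1). DLN/CD127hi Tregs had 94.4, 99.2 and 9.33 CPM, all above the 1.09, 2.99 and 0 CPM of DLN/CD127-/lo Tregs, with a difference of 5.65 ± 1.68 and an adjusted p of 0.103 (0.00698 by DESeq2). B cells were read beside it through 6 markers (Cd79a, Cd79b, Ms4a1, Pax5, Cd22, Ebf1), whose summed level was 408, 361 and 166 CPM in DLN/CD127hi, 80.7 to 158 in DLN/CD127-/lo and 0.542 to 38.4 CPM in graft libraries. In CD45+CD4- cells it was 2690.3 to 5735 CPM, and these had 20.3 to 72.3 CPM of Ccr6. Between these DLN groups the CD8 T cell marker Cd8a (adjusted p = 0.0130) and the neutrophil marker S100a8 (0.0112) were called higher in DLN/CD127hi Tregs. The part of B cells or of these other cells in the DLN difference was not tested.

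Ccr9, the receptor for CCL25 that directs T cells to the small intestine and thymus, lies at chr9:123678439-123784330 on the plus strand. CD127hi Tregs lay above CD127-/lo Tregs in spleen, with 35.2, 19.6 and 18.8 against 5.09, 8.05 and 7.03 CPM. In the DLN they lay below them, with 7.79, 8.66 and 13.5 against 43.6, 58.7 and 60.5 CPM. The groups overlapped in neither organ, yet neither difference passed (1.86 ± 1.32 with an adjusted p of 0.778, and -2.44 ± 1.36 with 0.650). The interaction of 4.30 ± 1.89 had an unadjusted p of 0.0236 and an adjusted p of 0.543. DLN/naive Tregs had 0, 2.10 and 6.82 CPM, below both tolerant DLN groups (DLN/CD127-/lo against DLN/naive 4.16 ± 1.47, adjusted p = 0.277, or 0.00250 by DESeq2), and SP/naive Tregs had 1.10, 8.46 and 10.6 CPM, below SP/CD127hi Tregs. Graft Tregs had 8.67, 3.29 and 24.7 CPM, with log2 differences of 0.86 from SP/naive, 0.86 from SP/CD127-/lo and -1.003 from SP/CD127hi Tregs (adjusted p = 0.998, 1 and 0.893). Without strand, 18.8% of the exon bases of Ccr9 are shared with AC165425.1 on the other strand, and reads there cannot be told apart.

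Cxcr4 encodes the receptor for CXCL12, which holds lymphocytes in bone marrow and is widely used by leukocytes. The gene lies at chr1:128588199-128592293 on the minus strand. SP/CD127-/lo Tregs had 44.4, 29.7 and 42.8 CPM and SP/CD127hi Tregs 54.3, 20.8 and 31.6 CPM, both above all SP/naive libraries with 10.7, 8.80 and 12.1 CPM. The differences of 1.88 ± 1.24 and 1.75 ± 1.24 on the log2 scale did not pass (adjusted p = 0.859 and 0.950). Graft Tregs had 23.8, 40.9 and 9.53 CPM and overlapped with all 3 splenic groups (1.23, -0.65 and -0.52 against SP/naive, SP/CD127-/lo and SP/CD127hi Tregs, adjusted p = 0.803, 1 and 1). In CD45+CD4- cells the tolerant libraries, with 66.0, 60.5 and 55.0 CPM, lay above the naive ones with 6.42, 29.7 and 34.4 CPM (1.36 ± 1.22, adjusted p = 1). DLN/CD127hi Tregs had 0, 5.51 and 245 CPM, the widest spread of the receptor, against 8.52, 4.20 and 4.34 CPM in DLN/naive Tregs (adjusted p = 0.194, or 0.0116 by DESeq2).

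Cxcr5, the receptor for CXCL13 that leads B cells and follicular T cells into B cell follicles, lies at chr9:44511787-44561877 on the minus strand. Graft Tregs had 7.85, 15.4 and 8.94 CPM and lay below every splenic Treg library, with 34.1, 33.5 and 24.2 CPM in SP/naive, 51.4, 17.1 and 116 in SP/CD127-/lo and 25.6, 22.7 and 30.4 CPM in SP/CD127hi Tregs. Cxcr5 was the only receptor of the 9 whose graft libraries lay below those of a splenic Treg group, and it did so against all 3. The log2 differences of -1.51 ± 1.19, -2.51 ± 1.23 and -1.29 ± 1.18 did not pass, with adjusted p of 0.793, 0.610 and 0.759. B cell markers summed to between 7.10 and 95.2 CPM in the splenic Treg libraries and between 0.542 and 38.4 CPM in the graft ones, and CD45+CD4- cells had 4.58 to 102 CPM of Cxcr5. Of the 6 markers, Ms4a1 was called lower in graft than in SP/naive and SP/CD127hi Tregs, with 0, 0 and 0.298 CPM in the graft. It was as low in SP/CD127-/lo Tregs, with 0, 0.252 and 0 CPM, where the mean of Cxcr5 was 61.4 CPM. The 6 markers together summed to 41.0, 50.1 and 65.4 CPM in SP/CD127-/lo Tregs, above the 0.542, 6.86 and 38.4 CPM of the graft libraries. The part of B cells in the difference was not tested. In the DLN, 1 library decided the mean in 2 groups, with 0, 0 and 93.6 CPM in naive and 2.92, 115 and 3.11 CPM in CD127hi Tregs.

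Read across the receptors, the comparison of graft with splenic Tregs asks which homing receptors mark Tregs at the transplant. Of 27 tests 1 passed, that of Cxcr6 against SP/CD127-/lo Tregs, where 0.105% of all gene tests in the 3 comparisons passed (0.130% against SP/naive, 0.0829% against SP/CD127-/lo and 0.103% against SP/CD127hi Tregs). The groups did not overlap in 10 of 27, 7 higher and 3 lower in the graft, where 7.95% of all gene tests did not overlap. The higher ones were Ccr2 and Ccr6 against SP/naive and SP/CD127-/lo, Ccr8 against SP/naive and SP/CD127hi, and Cxcr6 against SP/CD127-/lo Tregs, and the lower ones were Cxcr5 against each. The median log2 difference of the 9 receptors was 1.23, 0.52 and 0.44 against SP/naive, SP/CD127-/lo and SP/CD127hi Tregs, beside a median of 0 over all genes in each. The 3 comparisons share the graft libraries. Kidney markers, led by Kap, a transcript of the proximal tubule, summed to 116, 891 and 16.4 CPM in the graft libraries. Replicate 2, the highest of them, was also the graft library with the most Ccr2, Ccr4, Ccr6, Cxcr3, Cxcr4, Cxcr5 and Cxcr6. It also had the highest summed level of T cell markers (8311 against 6043 and 5844 CPM) and of Treg markers (16668 against 8919 and 9626 CPM), and the part of kidney RNA or of T cell content was not tested.

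**Figure D4:**
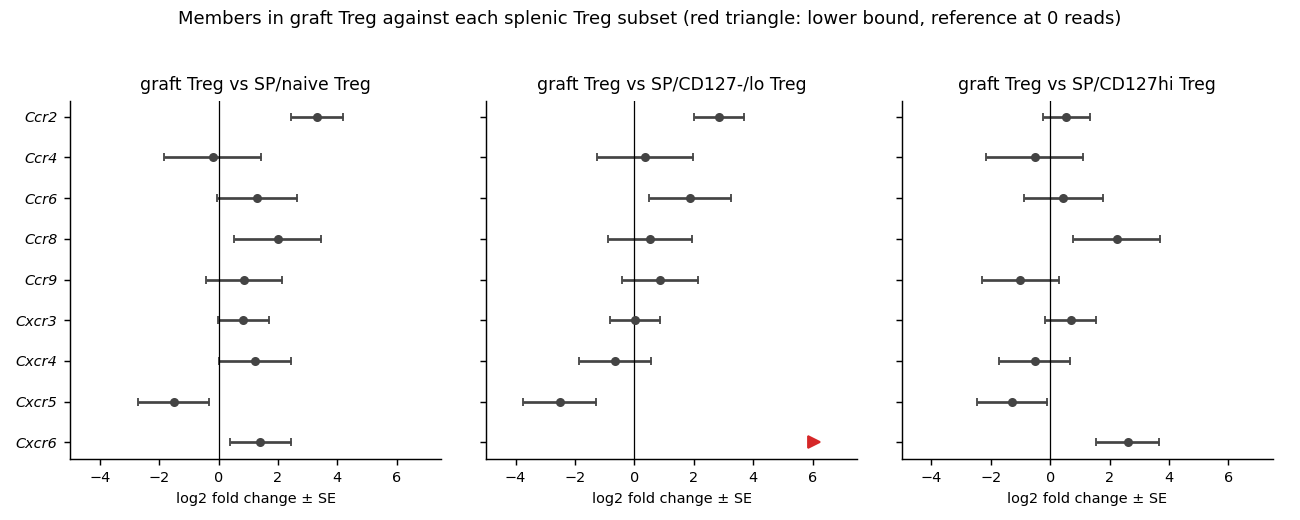
Log2 fold change of each receptor in graft Tregs against SP/naive, SP/CD127-/lo and SP/CD127hi Tregs (panels, horizontal axis), with points for the fitted value and bars for ± SE from 3 libraries per group. The red triangle is the lower bound of at least 66.4-fold for Cxcr6 against SP/CD127-/lo Tregs, where the reference had 0 reads, and Cxcr5 lies left of 0 in all 3 panels.

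Between splenic Treg subsets, 2 of 27 tests passed, both of Cxcr6 and given above, where 0.0605% of all gene tests passed (0.0907% for CD127hi against CD127-/lo, 0.0197% for CD127hi against naive and 0.0710% for CD127-/lo against naive). The groups did not overlap in 8 of 27, against 8.78% over all genes. Between DLN subsets, 2 of 27 passed, again of Cxcr6, against 0.575% over all genes (0.418%, 0.951% and 0.355% in the same order), and 8 of 27 did not overlap, against 6.46%. The median log2 difference of the receptors was 1.89 for CD127hi against CD127-/lo, 2.20 for CD127hi against naive and -0.09 for CD127-/lo against naive DLN Tregs, beside -0.01, 0.40 and 0.58 over all genes. The medians are the same with Cxcr6 set at its bound, and differences from DLN/naive Tregs include the shift over all genes. No receptor passed in either interaction by the quasi-likelihood test, where 0.118% of all genes passed in that of CD127 with organ and 0.0473% in that of tolerance with cell type.

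Tregs were also compared with CD4+ T cells of the spleen. Of 54 tests 5 passed, where 0.397% of all gene tests passed. By comparison, 0 of 9 receptors passed for SP/naive Tregs (0.264% of all genes), 2 for SP/CD127-/lo (0.469%), 0 for SP/CD127hi (0.422%) and 2 for graft Tregs (0.619%) against naive CD4+ T cells. Against tolerant CD4+ T cells, 1 passed for SP/CD127-/lo (0.284%) and 0 for SP/CD127hi Tregs (0.324%). The groups did not overlap in 19 of 54, 16 higher and 3 lower in Tregs, against 11.3% over all genes, and the 3 lower ones were all Cxcr6. Besides the values above, Cxcr4 lay above all naive CD4+ libraries (8.86, 0 and 6.27 CPM) in SP/CD127-/lo, SP/CD127hi and graft Tregs, with adjusted p of 0.489, 0.503 and 0.526.

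Within the groups without Foxp3, 0 of 27 receptor tests passed in the quasi-likelihood test, where 0.393% of all gene tests passed (0.107% for tolerant against naive CD4+, 0.0355% for tolerant against naive CD45+CD4- and 1.04% for naive CD4+ against naive CD45+CD4- cells). DESeq2 called 1, Ccr4 in naive CD4+ over naive CD45+CD4- cells (quasi-likelihood 4.52 ± 1.93, adjusted p = 0.352). Over all genes, 1777, 1130 and 2441 had an unadjusted p under 0.05. The groups did not overlap in 6 of 27, against 9.76% over all genes. These were Ccr4, Ccr8 and Cxcr4 between the CD4+ groups, Cxcr4 between the CD45+CD4- groups, and Ccr2 and Ccr4 between naive CD4+ and CD45+CD4- cells.

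Ordered by group mean over the 11 groups, adjacent groups overlapped for Ccr2, Ccr6, Ccr9, Cxcr5 and Cxcr6 throughout. A single gap was found for each of the other 4. Tolerant CD4+ T cells lay above the next lower group for Ccr4, Ccr8 and Cxcr3, and tolerant CD45+CD4- cells lay above the next one for Cxcr4.

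Of the 9 receptors, 8 were matched in the RefSeq promoter table, and Cxcr5 was not. In the 250 bases before the RefSeq start, read on both strands, the NFAT core GGAAA was found 3 times for Ccr2 and 1 time each for Ccr4, Cxcr4 and both windows of Ccr6. The AP-1 pattern TGANTCA, which 6.75% of all windows hold, was found for Ccr4. The ETS pattern AGGAAGT, held by 7.69%, was found for Ccr4, Ccr6 and 2 times for Cxcr3. It shares the letters GGAA with the NFAT core. The T-box pattern GGTGTGA, held by 3.33%, was found for none of the 8 genes, and Ccr9 like Ccr8 had none of the 4 patterns. These windows are not all outside the annotated genes. Those of Ccr4, Ccr9 and the second of Ccr6 lie wholly inside the gene coordinates given above, and 233 bases of that of Ccr2 and 122 of that of Cxcr3 do. On chromosome 9, Ccr9, Cxcr6 and Ccr2 lie within the cluster that also holds Xcr1, Ccr1 and Ccr3.

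Other genes of the system were read from fixed lists. None of 14 further chemokine receptors, among them Ccr1, Ccr7 and Cx3cr1, passed in any of the 18 comparisons (0 of 252 tests). Ccr7, which leads T cells into lymph nodes, had 67.4, 17.8 and 146 CPM in graft Tregs and 167 to 380 CPM in CD4+ T cells. Of 13 ligand genes tested, Ccl8, which encodes a monocyte chemoattractant, passed in 5 comparisons and the others in none. It was listed at 21.1, 0 and 30.4 CPM in graft Tregs and at 0.306 CPM or less in every spleen library. The macrophage and monocyte markers summed to 94.0, 0 and 470 CPM in the graft libraries, the same order as Ccl8. Ccl8 was higher in graft Tregs than in SP/naive (adjusted p = 0.0441), SP/CD127-/lo (0.0142) and SP/CD127hi Tregs (0.0479) and naive CD4+ T cells (0.00481). DLN/CD127hi Tregs, with 320, 582 and 43.5 CPM, were higher than DLN/naive Tregs with 0, 0 and 25.4 CPM (5.20 ± 1.44, adjusted p = 0.0431). In those DLN/CD127hi libraries the macrophage and monocyte markers summed to 630, 1064 and 809 CPM, another order than that of Ccl8. The part of these cells in the Ccl8 level was not tested.

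Among 25 genes that carry or end the receptor signal, 8 of 450 tests passed, all higher in the first group. Rgs1, which shortens G protein signalling, was higher in each Treg group than in the CD4+ T cells it was compared with, 6 of 6 comparisons, by 1.87 to 4.15 on the log2 scale. Graft Tregs had 1368, 1051 and 673 CPM of Rgs1 against 70.5, 57.6 and 45.8 CPM in naive CD4+ T cells. Rgs2 was higher in graft than in SP/naive Tregs, with 542, 359 and 74.8 against 53.4, 6.09 and 31.3 CPM (3.42 ± 0.79, adjusted p = 0.0241), and Rgs10 in naive CD4+ over CD45+CD4- cells. Of 7 genes of egress and retention, Itgae, which encodes the CD103 chain that binds E-cadherin, passed in 7 of 18 comparisons and the others in none. It was higher in Tregs in all 6 comparisons with CD4+ T cells, with 112, 178 and 134 CPM in graft Tregs and 0, 0.950 and 0.392 CPM in naive CD4+ T cells, and lower in naive CD4+ than in CD45+CD4- cells.

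The genes whose log2 CPM followed each receptor most closely over the 24 spleen and graft libraries, among 10025 genes with a mean of at least 5 CPM, are given as a description, since these libraries share cell types and depth. Ccr8 followed Casp1 (Pearson r = 0.82), Cish (0.81) and Tnfrsf18 (0.80), and Cxcr3 followed Sdf4 (0.90), Cdh23 (0.87) and Art2b (0.86). For Ccr4 they were Prkca (0.87), Tox (0.86) and Ccnd2 (0.84), and for Cxcr4 the first was Junb (0.85). The first gene was Gm47917 for Ccr6 (0.81), Tmem123 for Ccr2 (0.80), Tmem248 for Ccr9 (0.78), Isy1 for Cxcr5 (0.73) and Smyd4 for Cxcr6 (0.72). Tnfrsf18 encodes GITR, a costimulatory receptor of Tregs, and Cish a suppressor of cytokine signalling.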

How the data were processed

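RNA of sorted spleen, DLN and graft cells was amplified with SMART-Seq v4 and sequenced. The authors trimmed reads (Trim Galore, FastQC), aligned them with STAR to mm10 and deposited raw counts per gene and library, of which the unstranded column was used. The study's methods name another counter than the layout of the deposited count tables, so the counting options are uncertain. Between 37.0% and 69.2% of the reads tallied had no gene and were left out. Columns of no sample numbered 0.

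Gene identifiers were matched to GRCm38 symbols. Genes that reached 1 CPM in any library were fitted in edgeR 4.0.16 (R 4.3.3) with TMM factors (0.847 to 1.20), 1 mean per group over all 33 libraries, a quasi-likelihood test and Benjamini-Hochberg adjustment over 25347 genes (threshold 0.05). The fit was tested on simulated data. SE is the log2 fold change divided by the square root of F. Bounds set a group at 0 to 3 counts per library.

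Alternatives were the likelihood ratio test that the study used, RLE scaling, no filter, at least 10 counts in at least 3 libraries, only the compared libraries, a replicate block, DESeq2 1.42.0 and leaving out each library. All 9 receptors were named, with the 3 genes most alike each at a mean of at least 5 CPM (the first alone printed for some), and other genes came from pathway and marker lists, in which some genes are not reported here. Receptors and lists were chosen with earlier results of these data known. Promoter sequences came from RefSeq on GRCm38.p6. No 2 libraries of a group were alike within sampling noise.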

Additional observations from a re-analysis of the deposited data

How the results depend on the processing

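Against splenic Tregs, graft Tregs had 1 call, which became 2 with no filter, 0 with the stricter filter and 2 with the replicate block. Over all genes there were 33, 21 and 26 calls against SP/naive, SP/CD127-/lo and SP/CD127hi Tregs. These became 59, 33 and 52 with no filter, 6, 0 and 0 with the stricter filter and 61, 40 and 50 with the replicate block. Between splenic subsets 2 calls became 0 with the stricter filter. Those over all genes went from 23, 5 and 18 to 0, 0 and 1 for CD127hi against CD127-/lo, CD127hi against naive and CD127-/lo against naive Tregs. Between DLN subsets 2 became 1 with the stricter filter, 0 when the fit held the compared libraries alone and 6 with DESeq2, and was 3 with RLE scaling or no filter. DESeq2 also raised the calls over all genes there, from 106, 241 and 90 to 730, 959 and 626 in CD127hi against CD127-/lo, CD127hi against naive and CD127-/lo against naive Tregs. They became 68, 131 and 23 with the stricter filter and 10, 20 and 6 with the compared libraries alone. With RLE scaling they were 109, 247 and 76, and with no filter 142, 279 and 119. Against CD4+ T cells 5 became 10 with no filter, 2 with the stricter filter, 10 with the replicate block and 8 when the compared libraries were fitted alone. Over all genes, the 6 comparisons in the order given above had 67, 119, 107, 157, 72 and 82 calls. They had 97, 134, 127, 176, 82 and 116 with no filter and 35, 52, 52, 59, 28 and 26 with the stricter filter. The replicate block gave 97, 148, 135, 168, 87 and 122, and the compared libraries alone 94, 186, 158, 95, 342 and 306. In the groups without Foxp3, 0 became 1 with DESeq2, and among interactions 0 became 1 with no filter. Over all genes, DESeq2 raised the former from 27, 9 and 263 to 83, 39 and 615 calls, in the order given above. With no filter the interactions went from 30 and 12 to 54 and 16 calls over all genes. Leaving out 1 library at a time gave 1 to 3 calls for graft, 1 to 2 for splenic, 2 to 4 for DLN and 4 to 9 for CD4+ comparisons, and 0 to 1 for both the groups without Foxp3 and the interactions. The cause was not tested. Sign changes touched only fold changes that had not passed. Leaving out 1 library moved the graft difference from SP/naive Tregs between -1.41 and 0.20 for Ccr4, -0.17 and 1.35 for Ccr9 and -0.24 and 1.24 for Cxcr3. Against SP/CD127-/lo Tregs the ranges were -0.86 to 1.06 for Ccr4, -0.023 to 1.19 for Ccr8, -0.17 to 1.31 for Ccr9 and -1.05 to 0.43 for Cxcr3, and against SP/CD127hi Tregs -1.74 to 0.015 for Ccr4 and -0.39 to 1.09 for Cxcr3. With the replicate block Cxcr3 was at -0.28 against SP/CD127-/lo Tregs, from 0.03. Graft differences that kept their sign also moved when 1 library was left out. Against SP/CD127-/lo Tregs, Ccr2 ranged from 2.29 to 4.49 and Ccr6 from 1.29 to 3.83. Against SP/CD127hi Tregs, Ccr6 ranged from 0.029 to 1.43, Ccr8 from 1.66 to 4.31 and Cxcr6 from 1.63 to 5.89. Deviations of same-numbered libraries had a median r of 0.002364 over 165 pairs, beside -0.0003345 for libraries of other numbers. Of the 33 libraries, 15 were closest to one of their own number. These pairs took naive and tolerant groups together, and pairing by replicate number among tolerant groups alone was not tested. Cxcr4 in tolerant CD45+CD4- cells was 66.6 CPM by plain library totals, from 60.5. Depth limits the DLN most, where 3 counts equal up to 3.11 CPM.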
